A study of Homo sapiens with 4 samples.

Results

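The genes described are those of hypoxia sensing and of the response to hypoxia-inducible factors (HIFs) outside glycolysis. They were chosen as a list of 34 symbols, with earlier results of these data known. Of these, 33 had a row in the files of all 4 libraries, among 16370 genes listed in either pair of cell lines, and STC1 was not analysed here. The counts came from RNA sequencing of the human hepatoma lines Hep3B and Huh7, labelled as hepatocellular carcinoma (HCC), and of the stem-like cultures Hep3B-C and Huh7-C that were grown from them, labelled as hepatic cancer stem cells (HCSC). The labels give no drug, oxygen level or time for any of the 4 cultures. HCC and HCSC comprised 2 libraries each, 1 per parental line and without replicates, and each HCSC line was a population cultured from 1 established line.

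Cells sense oxygen through enzymes that need it as a substrate. Prolyl hydroxylases of the EGLN family mark the HIF alpha subunits HIF1A and EPAS1 for the VHL ubiquitin ligase, and the asparaginyl hydroxylase HIF1AN blocks their binding to coactivators. When oxygen is short, the alpha subunits persist, pair with ARNT and bind hypoxia response elements. Control of the alpha subunits is mainly at the protein level, which RNA counts do not show, whereas the targets are read out as mRNA. In liver, HIFs control erythropoietin, lipid handling and blood vessel growth.

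Hypoxia response elements share the core ACGTG or GCGTG. RefSeq promoter windows (GRCh38.p14, 250 bases before to 50 after the first start listed for each gene) were matched for 29 of the 33 genes. No window was available for VHL, VEGFA, BNIP3L and NDRG1, so their cores were not searched. On either strand, ACGTG was found in 12 of these 29 windows (41.4%) and GCGTG in 14 (48.3%). Over 12679 windows of genes in the count files, the shares were 25.4% and 48.0%, and over 27305 windows of all genes 21.6% and 36.3%. Of members called down in the Hep3B pair, described below, 10 of 23 windows held ACGTG (43.5%), beside 2 of 6 windows of the other members (33.3%). EGLN3, called down in both pairs, held neither core in its window. A part of the core in the changes described below was not tested. The stretches below surround the ACGTG core nearest to the start in the 10 genes that were called down in at least 1 pair and held it upstream. Each is given on the strand of its gene, with capitals for the cores. CACGT and CACGC are the same cores on the other strand, CACGTG holds ACGTG on both, and a match is a description of the letters only.
CA9 (chr9:35673892-35673927, plus strand): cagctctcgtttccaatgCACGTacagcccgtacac
PLOD2 (chr3:146161308-146161348, minus strand): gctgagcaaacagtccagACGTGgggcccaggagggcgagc
LOX (chr5:122078279-122078319, minus strand): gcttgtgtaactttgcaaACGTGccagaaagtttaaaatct
ANGPTL4 (chr19:8363905-8363943, plus strand): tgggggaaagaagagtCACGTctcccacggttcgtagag
P4HA1 (chr10:73096930-73096970, minus strand): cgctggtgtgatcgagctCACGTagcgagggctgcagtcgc
ERO1L (chr14:52695650-52695690, minus strand): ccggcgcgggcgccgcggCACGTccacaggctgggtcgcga
BNIP3 (chr10:131982034-131982074, minus strand): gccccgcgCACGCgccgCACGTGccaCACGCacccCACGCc
ANKRD37 (chr4:185396680-185396720, plus strand): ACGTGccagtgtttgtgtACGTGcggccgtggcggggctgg
WSB1 (chr17:27294039-27294079, plus strand): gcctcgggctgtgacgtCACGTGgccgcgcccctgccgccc
EGLN1 (chr1:231422288-231422318, minus strand): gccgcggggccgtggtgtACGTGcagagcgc

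Total gene counts ranged from 2896418 in Hep3B to 4641927 in Hep3B-C, and 3 counts, taken as the floor of a library, stood at 0.646 to 1.04 CPM, the count divided by the total gene count of the library and set to the usual common scale. Hepatocyte markers had at least 10 counts for all 10 genes in every library. Their sum was 63640 and 72500 CPM in the Hep3B pair (3 called down and 3 up) and 51540 and 26890 CPM in the Huh7 pair (4 down and 1 up, median log2 fold-change -0.97). The sum of 5 stem cell surface markers was lower in both HCSC lines, at 2579 and 470.9 CPM in the Hep3B pair (all 3 listed there called down) and 1130 and 461 CPM in the Huh7 pair (2 called down), and THY1 had no count in 3 libraries. Immune markers had at least 10 counts for 2 of 5 genes in each library and summed to 186 to 449 CPM, with PTPRC and CD3E at 0 in all. In the Hep3B pair 1 of them was called up. Endothelial markers summed to 2.80 to 3.97 CPM in 3 libraries and 21.5 CPM in Huh7-C, where 1 was called up, with CDH5 and TEK at 0 in all. Fibroblast markers summed to 10.8 to 45.2 CPM, with 1 called down in the Hep3B pair. In the Huh7 pair 1 was called up and 1 down. The log2 fold-changes there ran from -6.16 to 6.94 over the 3 with at least 10 counts. The part of these marker differences in the results below was not tested.

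To identify changes in HCSCs, Hep3B-C was compared with Hep3B and Huh7-C with Huh7. A gene was called by the thresholds of the study, an FDR (false discovery rate) of at most 0.01 together with a change of 1 or more on the log2 scale, using the Audic-Claverie test, a Poisson test of a pair of counts. Such a call compares 2 libraries and not 2 conditions, since no line had a replicate, and all intervals given are 95% intervals that cover counting error only. In the Hep3B pair, 27 of the 33 genes were called down and 1 was called up, against 30.4% called down and 13.2% called up among 15480 genes. In the Huh7 pair, 6 were called down and 0 up by this test, against 4.15% and 4.19% among 14807 genes. At the same thresholds the study reports more genes up and down in that pair, and more shared by both pairs, than were called here. The same 6 genes were down in both pairs (EGLN3, ANGPTL4, CA9, PLOD2, LOX and NDRG1), against 1.49% of 13917 shared genes. No member was called up in both pairs (0.568% of shared genes) or in opposite directions (2.45%). These counts depended on the spread assumed between replicates. With a biological coefficient of variation (BCV) of 0.2, edgeR's exact test called 20 members down in the Hep3B pair (20.5% of all genes) and 2 in the Huh7 pair (1.09%). With a BCV of 0.4 it called 6 down in the Hep3B pair (1.09%), namely VEGFA, PLOD2, LOX, ANKRD37, WSB1 and RORA.

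The median log2 fold-change over the members was -2.27 in Hep3B-C (33 genes with at least 10 counts over the pair) and -0.07 in Huh7-C (31 genes). Over all genes with that many counts the medians were -0.60 and 0.06. With TMM library sizes the median of all genes in the Hep3B pair moved to -0.01 and that of the members to -1.67. Calls in that pair then stood at 19 members down and 2 up, against 18.1% down and 21.6% up of all genes. The sum of the members ranged from 1078 CPM (Hep3B-C) to 4843 CPM (Hep3B), with 2916 CPM in Huh7 and 2305 CPM in Huh7-C. Hep3B was the highest of the 4 libraries for 20 of 33 members (44.6% of all shared genes), and Hep3B-C for 1 member, EGLN2 (18.6%). With TMM over the 4 libraries, Hep3B was the highest for 17 members (36.6% of all shared genes) and Hep3B-C for 2 (25.2%). Less RNA per cell and fewer cells that express a gene cannot be told apart in such bulk samples.

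**Figure D1:**
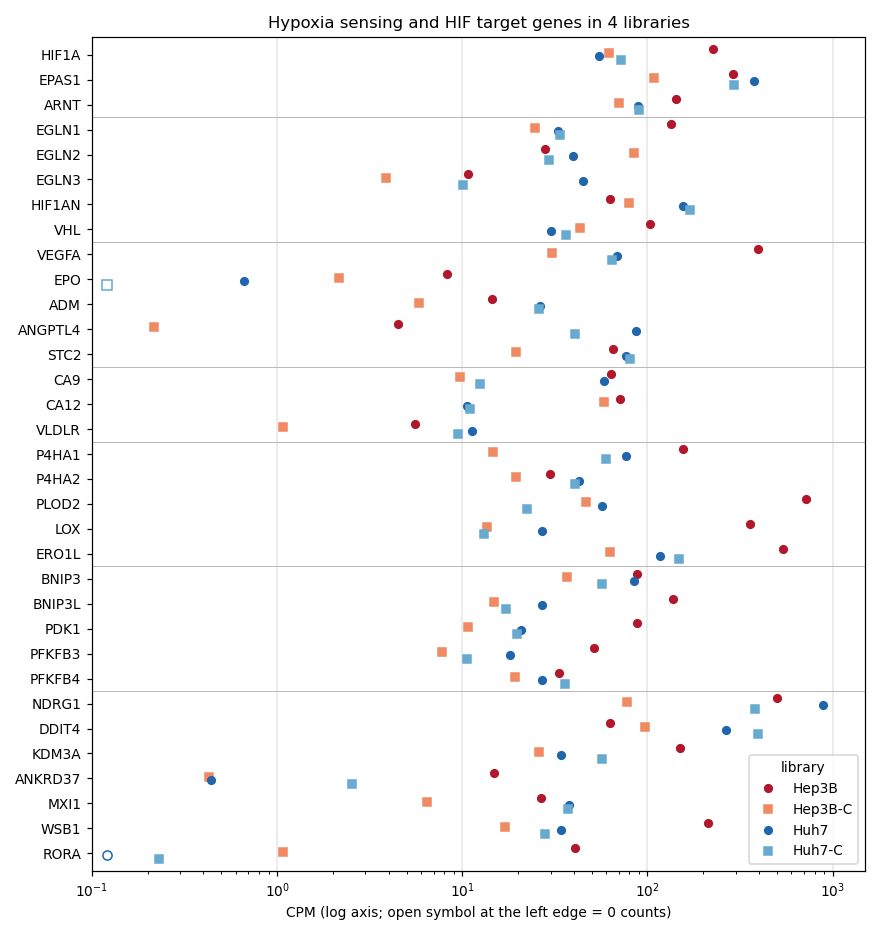
CPM of each of the 33 genes in the 4 libraries, on a log axis, with 1 point per library and grey lines between functional groups. For most targets the point of Hep3B lies to the right of that of Hep3B-C, while the points of Huh7 and Huh7-C lie close together except for genes such as CA9, EGLN3 and NDRG1.

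All 3 HIF subunits were called down in Hep3B-C, against 30.4% of all genes, and not called in Huh7-C. In the Hep3B pair 1 of the 3 was down with TMM (18.1% of all genes). Likewise 1 was down once the trends with GC content and gene length were removed (21.1%). HIF1A, the alpha subunit found in most cells, had 225 CPM in Hep3B and 61.8 in Hep3B-C, against 54.7 in Huh7 and 72.0 in Huh7-C. Hep3B thus stood apart from the other 3 libraries. The ratio was 0.275 (0.238 to 0.316) in the Hep3B pair and 1.32 (1.11 to 1.56) in the Huh7 pair. EPAS1, the alpha subunit of HIF-2, had 291, 109, 376 and 293 CPM in the same order of libraries. Both parental lines exceeded their HCSC lines, with ratios of 0.375 (0.335 to 0.419) and 0.780 (0.725 to 0.839). ARNT, the partner of both, had 142, 70.7, 89.5 and 90.2 CPM. Its log2 fold-change of -1.01 in the Hep3B pair lay at the threshold. In that pair the calls of EPAS1 (-0.82) and ARNT (-0.41) were lost with TMM, and those of HIF1A (-0.52) and ARNT (-0.21) once the trends with GC content and gene length were removed.

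Of the 4 hydroxylases and VHL, 3 were called down and 1 up in Hep3B-C, against 30.4% and 13.2% of all genes. With TMM 1 was down and 1 up, against 18.1% and 21.6% of all genes. EGLN1, the main prolyl hydroxylase that limits HIF1A in normal oxygen, had 135 CPM in Hep3B and 24.8 in Hep3B-C, a ratio of 0.184 (0.148 to 0.227). The 33.1 and 33.9 CPM of the Huh7 pair gave a ratio of 1.03 (0.812 to 1.297). EGLN3, a hydroxylase whose gene is itself a HIF target, had 10.7, 3.88, 44.96 and 10.2 CPM. It was called down in both pairs, with ratios of 0.362 (0.191 to 0.668) and 0.226 (0.159 to 0.314), and the call in the Hep3B pair was lost with TMM (-0.85). EGLN2 was the one member called up, from 28.0 to 85.1 CPM in Hep3B-C, a ratio of 3.04 (2.39 to 3.91). Huh7 and Huh7-C had 39.5 and 29.5 CPM, a ratio of 0.749 (0.592 to 0.945) that was not called. EGLN2 transcripts were the richest in GC of the 33 (63.8%), and the log2 fold-change of 1.598 became 0.08 after removal of those trends. HIF1AN had 62.8 and 79.9 CPM in the Hep3B pair and 155 and 170 CPM in the Huh7 pair, with no call in either. The log2 fold-change of HIF1AN in the Hep3B pair, 0.345, was 0.94 with TMM and reached a call up with DESeq2 size factors (1.03), with the length trend removed (1.303) and with both trends removed (1.08). VHL, the substrate receptor of the ligase, went from 103 to 43.1 CPM in Hep3B-C and was called down, while 29.97 and 36.5 CPM in the Huh7 pair were not called. The VHL call was lost with TMM (-0.66) and without the GC and length trends (-0.78).

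All 5 secreted targets with a row were called down in Hep3B-C, against 30.4% of all genes. With TMM 3 of the 5 were down, against 18.1% of all genes. VEGFA, the main growth factor for blood vessels, had 397 CPM in Hep3B and 30.4 in Hep3B-C, against 68.8 in Huh7 and 64.6 in Huh7-C. Hep3B was the only high library, and the 13.1-fold lower level in Hep3B-C (ratio 0.0764, 0.0637 to 0.0911) stood beside a ratio of 0.940 (0.797 to 1.11) in the Huh7 pair. ANGPTL4, an inhibitor of lipoprotein lipase, had 13 counts in Hep3B and 1 in Hep3B-C (ratio 0.0480, 0.00113 to 0.320), but 87.3 CPM in Huh7 and 40.6 CPM in Huh7-C (ratio 0.465, 0.387 to 0.557). The level was thus far higher in both Huh7 libraries than in either Hep3B library. EPO, the hormone of red cell production, fell from 24 to 10 counts in the Hep3B pair. Its 3 and 0 counts in the Huh7 pair were at or under the floor, so no fold is given. ADM, a vasodilator peptide, was called down in the Hep3B pair (14.5 to 5.82 CPM) and had 26.5 and 26.1 CPM in the Huh7 pair. STC2, a secreted glycoprotein, followed the same pattern, with 64.9, 19.6, 76.9 and 80.5 CPM. The calls of EPO and ADM were lost with TMM (-1.31 and -0.71), and that of STC2 with the length trend removed (-0.97).

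CA9 was called down in both pairs. This membrane carbonic anhydrase, which acidifies the space around hypoxic cells and is a widely used marker of HIF activity, had 63.9 CPM in Hep3B and 58.6 CPM in Huh7, and 9.69 and 12.5 CPM in Hep3B-C and Huh7-C. Both HCSC libraries lay below both HCC libraries, by 6.59-fold in the Hep3B pair (ratio 0.152, 0.107 to 0.211) and 4.71-fold in the Huh7 pair (ratio 0.213, 0.156 to 0.286). It was the only member called down in both pairs with an assumed BCV of 0.2. CA12, a related membrane enzyme, was not called in either pair, with 71.5, 58.2, 10.6 and 11.1 CPM. VLDLR, a lipoprotein receptor, was called down from 16 to 5 counts in the Hep3B pair and had 51 and 41 counts in the Huh7 pair, and its call was lost with TMM (-1.67) and without the GC and length trends (-1.69), though the fold-change stayed past the threshold.

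The 5 enzymes of collagen and protein folding stood at a median of -3.40 on the log2 scale in the Hep3B pair. Of them 4 were called down, against 30.4% of all genes, and 4 with TMM, against 18.1%. PLOD2, the lysyl hydroxylase of collagen telopeptides, had 720.5 CPM in Hep3B and 46.5 in Hep3B-C, and 56.9 in Huh7 and 22.4 in Huh7-C. LOX, which cross-links collagen and elastin, had 356, 13.6, 27.1 and 13.2 CPM. For both genes Hep3B was far above the other libraries, and both HCSC lines lay below both HCC lines. PLOD2 was 15.5-fold lower in Hep3B-C (ratio 0.0646, 0.0559 to 0.0743) and 2.54-fold lower in Huh7-C (ratio 0.394, 0.308 to 0.499). LOX was 26.3-fold lower (ratio 0.0381, 0.0291 to 0.0492) and 2.06-fold lower (ratio 0.485, 0.348 to 0.669), the latter close to the threshold. With 5 added to each count, the call of LOX in the Huh7 pair was lost (-0.98). P4HA1, the catalytic subunit of a collagen prolyl hydroxylase, was 10.7-fold lower in Hep3B-C (156 to 14.7 CPM), whereas its isoenzyme P4HA2 was not called (29.7 to 19.6 CPM). Huh7 and Huh7-C had 76.9 and 59.5 CPM of P4HA1 and, for P4HA2, 42.8 and 40.8 CPM, without a call. ERO1L, an oxidase for disulfide bonds in the endoplasmic reticulum, fell from 542 to 62.5 CPM in Hep3B-C. With Huh7 the values were 116 and 148 CPM, a ratio of 1.27 (1.13 to 1.43) in the other direction that was not called.

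**Figure D2:**
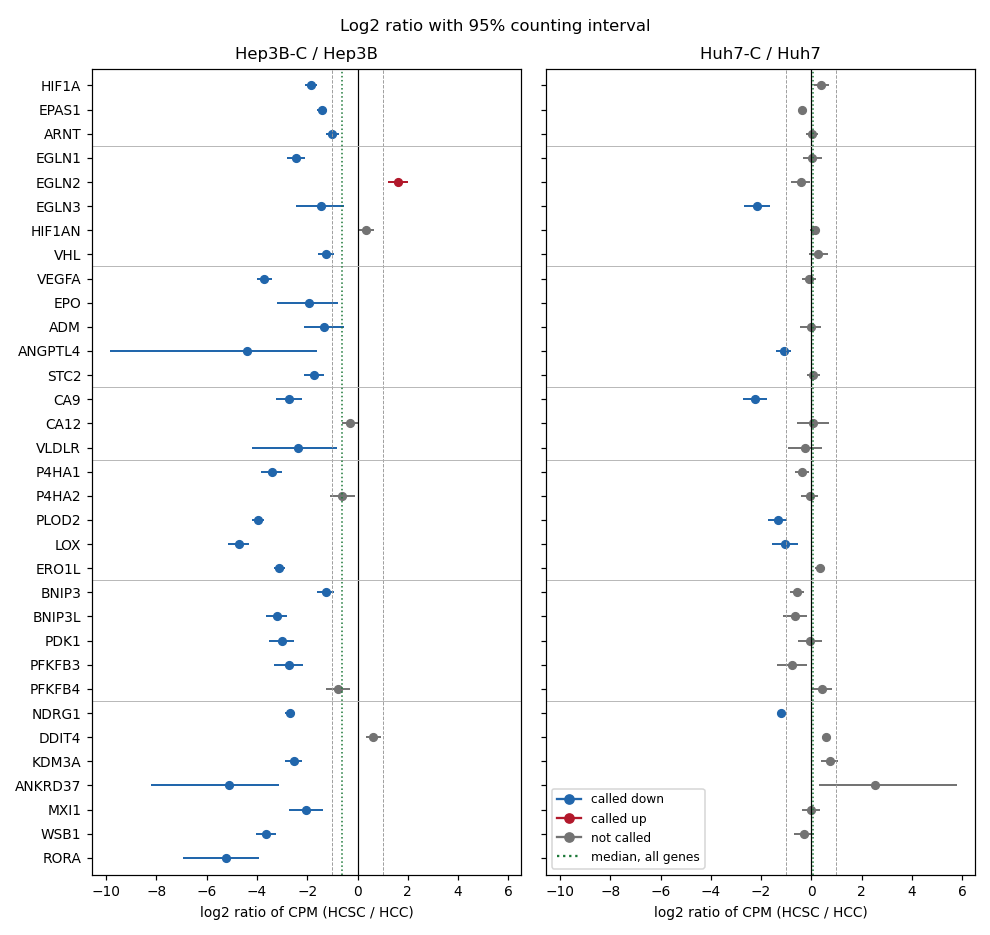
Log2 ratio of CPM (HCSC/HCC) of each gene in the Hep3B pair (left) and the Huh7 pair (right), with bars for the 95% counting interval, dashed lines at -1 and 1 and a dotted line at the median of all genes. Counts enter without the 0.5 added for the calls, and EPO and RORA are left out of the right panel, where both libraries were at or under the floor. Points of the left panel lie mostly below -1, and those of the right panel mostly between -1 and 1 except for 6 genes called down and ANKRD37.

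Of 5 targets in mitophagy and metabolism, 4 were called down in Hep3B-C, against 30.4% of all genes. With TMM 3 were down, against 18.1% of all genes. BNIP3L, a receptor that marks mitochondria for removal, went from 138 to 14.9 CPM in the Hep3B pair, 9.27-fold lower, and its relative BNIP3 from 88.4 to 36.6 CPM, 2.41-fold lower. Huh7 and Huh7-C had 84.8 and 57.0 CPM of BNIP3 (ratio 0.672, 0.570 to 0.790) and 27.1 and 17.3 CPM of BNIP3L (ratio 0.638, 0.473 to 0.858). Both intervals lay below 1, and neither gene reached the threshold of the fold-change. The call of BNIP3 in the Hep3B pair was lost with TMM (-0.67). PDK1, the kinase that inhibits pyruvate dehydrogenase, was 8.11-fold lower in Hep3B-C (87.4 to 10.8 CPM) and had 20.7 and 19.8 CPM in the Huh7 pair. PFKFB3, which makes the activator of phosphofructokinase, was called down in Hep3B-C (51.4 to 7.76 CPM). In Huh7 and Huh7-C it had 18.1 and 10.6 CPM, a ratio of 0.587 (0.4002 to 0.853). Its relative PFKFB4 was not called in either pair, with 33.1, 19.4, 26.9 and 36.0 CPM.

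Of the targets in growth control, chromatin and transcription, NDRG1 had the highest level per length in Huh7, at 254 RPKM (CPM per kilobase of gene length). This stress-induced gene had 504 CPM in Hep3B and 77.8 in Hep3B-C, against 884 in Huh7 and 381 in Huh7-C. It was 6.48-fold lower in Hep3B-C (ratio 0.154, 0.137 to 0.173) and 2.32-fold lower in Huh7-C (ratio 0.432, 0.407 to 0.457), and both HCSC libraries lay below both HCC libraries. DDIT4, an inhibitor of mTORC1, was not called in either pair. It had 63.2, 97.2, 265 and 395 CPM, with ratios of 1.54 (1.29 to 1.84) and 1.49 (1.38 to 1.603) that were under the threshold of the fold-change. DDIT4 ranked first of the members per length in both HCSC libraries, at 55.5 RPKM in Hep3B-C and 225 RPKM in Huh7-C, while PLOD2 (178 RPKM) ranked first in Hep3B. The direction of DDIT4 in the Hep3B pair depended on the processing, at 1.21 on the log2 scale with TMM and -0.74 without the GC and length trends.

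KDM3A and ANKRD37 had ratios on opposite sides of 1 in the pairs. KDM3A, a histone demethylase, fell from 151 to 26.1 CPM in Hep3B-C (ratio 0.173, 0.140 to 0.212) and had 34.2 CPM in Huh7 and 57.0 in Huh7-C (ratio 1.67, 1.36 to 2.05), under the threshold. ANKRD37, a small ankyrin repeat protein, fell from 43 to 2 counts in the Hep3B pair (ratio 0.0290, 0.00341 to 0.111). In the Huh7 pair it had 2 and 11 counts, a ratio of 5.76 with an interval from 1.26 to 53.5 that was not called. Its promoter window held the ACGTG core 3 times, counting both strands, with 2 of these in a single CACGTG. By the same count the window of WSB1 held 3 and the first window of LOX 4. MXI1, an antagonist of MYC, and WSB1, a ubiquitin ligase component, were called down in the Hep3B pair (26.6 to 6.46 and 212 to 17.0 CPM). In the Huh7 pair MXI1 had 37.9 and 37.2 CPM and WSB1 33.9 and 27.9 CPM. RORA, a nuclear receptor, went from 118 counts to 5 in the Hep3B pair, a call down, and had 0 and 1 count in the Huh7 pair.

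Across the groups, both HCSC libraries lay below both HCC libraries in 12 of the 33 members, against 16.9% of all shared genes. These 12 were the 6 shared genes without ANGPTL4, and VEGFA, P4HA1, BNIP3, BNIP3L, PDK1, PFKFB3 and WSB1. No member had both HCSC libraries above both HCC libraries (10% of all genes). With TMM over the 4 libraries, 13 were below (13.2% of all genes) and 0 above (12.6%). The members' log2 fold-changes of the pairs had a Spearman coefficient of 0.337 and a Pearson coefficient of 0.0983 over the 31 members that had 10 or more counts in both, beside -0.0393 and 0.0217 over 11151 genes. These are descriptions across genes, which are not independent replicates.

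**Figure D3:**
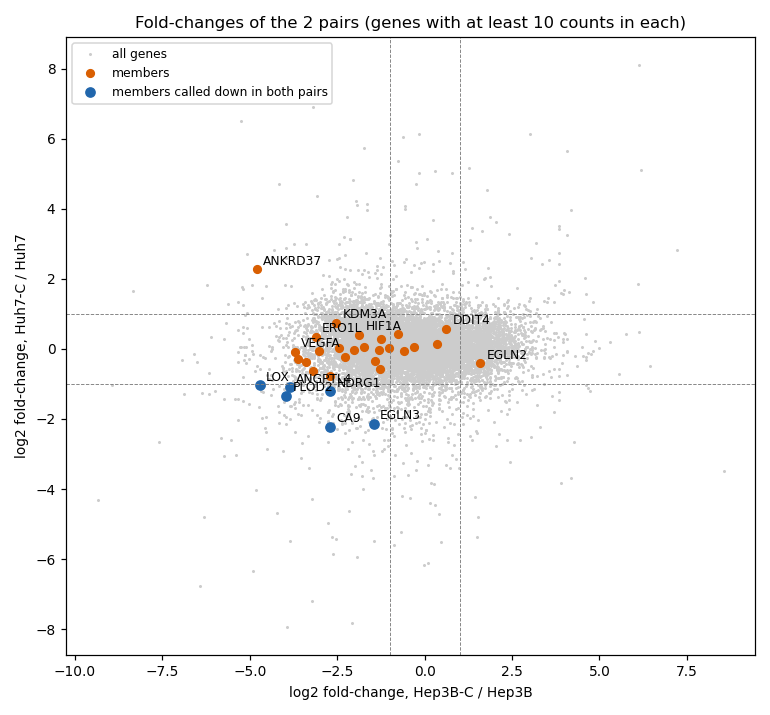
Log2 fold-change of the Hep3B pair (horizontal) against that of the Huh7 pair (vertical), with all genes of at least 10 counts in each pair in grey, the members in orange and the 6 members called down in both pairs in blue. Dashed lines mark -1 and 1. Most members lie to the left of -1 and near 0 on the vertical axis, and ANKRD37 lies apart in the upper left.

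A joint test over all 4 libraries set the difference between HCSC and HCC against its variation from one parental line to the other. In a fit blocked by parental line, edgeR's quasi-likelihood test called none of 31 members, where 3 of 11691 genes were called (0.0171% up and 0.00855% down). At an unadjusted p under 0.05 it gave 5 members, all lower in HCSC, against 3.18% of all genes. DESeq2 likewise called no member and gave 9 of 33 at that level, against 2.64% of 16370 genes, with a smallest adjusted p of 0.268 among the members. In edgeR the 5 were LOX (log2 fold-change -2.72, adjusted p = 0.923), CA9 (-2.30, adjusted p = 0.994) and PLOD2 (-2.49, adjusted p = 0.999), and also ANGPTL4 (-1.96) and NDRG1 (-1.78), both at an adjusted p of 0.999. In these 5 the fold-change was below 0 in both pairs. The fit had 1 residual degree of freedom and a common BCV of 0.514.

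GC content was examined because the fold-changes of the Hep3B pair increased with it over all genes (Spearman 0.631 across 11338 genes) and decreased with gene length (Spearman -0.434). Among genes with a GC content over 55%, the median log2 fold-change of all genes in that pair was 0.79 (3959 genes, 10.1% called down and 39.6% called up). The 11 members in this range had a median of -1.90, with 8 called down and 1 up. Under 45% GC, all 11 members were called down with a median of -3.20, where the median of 4306 genes was -1.50 and 65.7% were called down. After removal of both trends, 24 members were called down and 1 up (HIF1AN) in the Hep3B pair, against 21.1% and 5.12% of all genes. The removal kept the library totals and was not combined with TMM, and the median of all genes in that pair was still -0.42. The calls of PFKFB4 and P4HA2 were gained, and those of HIF1A, ARNT, EGLN3, VHL, VLDLR and EGLN2 were lost. Of the 6 calls in the Huh7 pair 5 remained (3.94% of all genes), and ANGPTL4 there stood just under the threshold (-0.995). CA9, PLOD2, LOX and NDRG1 were still down in both pairs (1.5% of all genes).

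**Figure D4:**
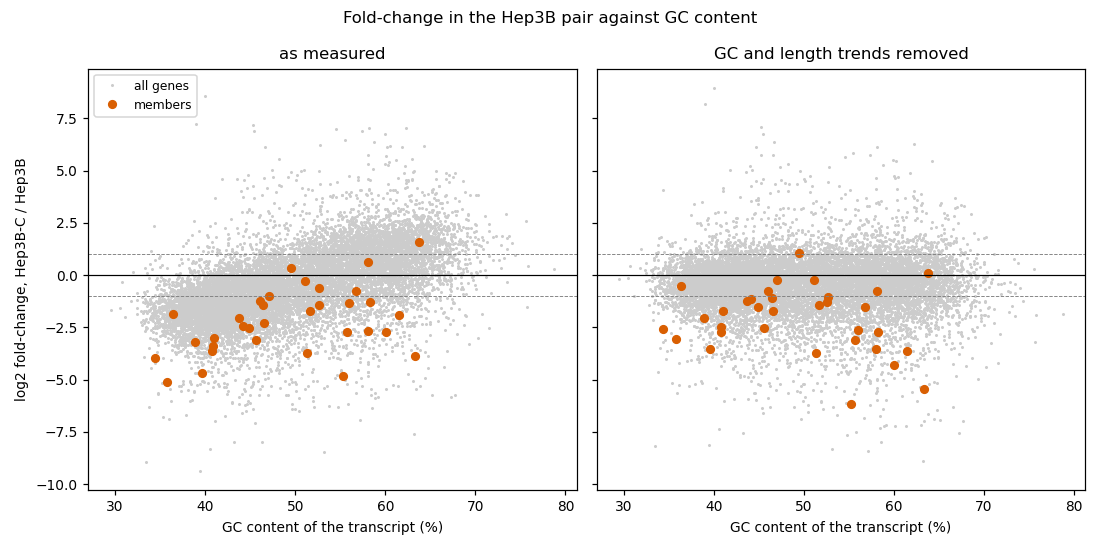
Log2 fold-change of the Hep3B pair against the GC content of 1 transcript per gene, as measured (left) and after removal of the trends with GC content and gene length (right), for genes of at least 10 counts (grey) and the members (orange). On the left the grey cloud rises with GC content and most members lie under it, and on the right the cloud is flat and most members lie below -1.

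Other genes of the pathway were taken from lists chosen by function, with earlier results of these data known. Among 17 listed partners of the HIF machinery (the VHL complex, coactivators and other regulators), 7 were called down (41.2%) and 3 up (17.6%) in the Hep3B pair, against 30.4% and 13.2% of all genes. With TMM, 3 were down and 3 up, against 18.1% and 21.6%, and their median log2 fold-change of -0.57 became 0.03. CITED2, itself a HIF target that competes with HIF1A for coactivators, was called down in both pairs, from 103 to 11.2 CPM and from 159 to 72.9 CPM, and its call in the Huh7 pair was lost after removal of the GC and length trends (-0.96). The coactivator EP300 was called down in the Hep3B pair (287 to 98.7 CPM) and up in the Huh7 pair (75.8 to 174 CPM), and both calls were lost after that removal (-0.997 and 0.79). SIAH1, a ubiquitin ligase for EGLN proteins, was called down in the Hep3B pair (21.8 to 6.46 CPM). Called up there were TCEB2, the elongin B of the VHL complex (50.1 to 153 CPM), GNB2L1, the scaffold protein RACK1 (1105 to 2944 CPM), and the deubiquitinase USP20 (11.4 to 23.7 CPM). None of these 3 was called after removal of the trends (TCEB2 -0.15, GNB2L1 -0.15 and USP20 0.30).

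Of 37 further HIF targets outside glycolysis, 18 were called down (48.6%, against 30.4% of all genes) and 1 up (2.70%, against 13.2%) in Hep3B-C, with a median of -1.34 over those with at least 10 counts. The copper carrier ceruloplasmin (CP) fell from 1367 to 52.8 CPM, ERRFI1, a feedback inhibitor of EGFR, from 201 to 15.3 CPM, and KLHL24 from 62.8 to 6.68 CPM. The heme oxygenase HMOX1 was called up (31.4 to 71.7 CPM), a call that was lost after removal of the GC and length trends (-0.26). Of 36 in the Huh7 pair, 5 were called down (13.9%, against 4.15%) and 1 up (2.78%, against 4.19%), with a median of -0.20. There the growth factor binding proteins IGFBP1 (3799 to 460.3 CPM) and IGFBP3 (1481 to 423 CPM) and the iron carrier transferrin (TF, 1547 to 319 CPM) fell, and endothelin (EDN1) rose from 17 to 55 counts.

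Glycolytic HIF targets in the Hep3B pair included 9 called up (56.2%, against 13.2% of all genes) and 3 called down (18.8%, against 30.4%) of 16 (median 1.16). The enzymes ENO1 (937 to 4459 CPM), TPI1 (554 to 2411 CPM) and GAPDH (5464 to 17310 CPM) rose, whereas LDHA, which makes lactate, fell from 2266 to 469.8 CPM and the hexokinase HK2 from 289.7 to 106 CPM. Several of these genes have processed pseudogenes, and how reads with more than one match were counted was not stated. After removal of the GC and length trends 0 of the 16 were called up (5.12% of all genes) and 2 down (12.5%, against 21.1%), with a median of 0.14. In the Huh7 pair ALDOC was called up (9 to 77 counts) and PFKP down (247 to 112 CPM), out of 17 (median -0.05).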

How the data were processed

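Total RNA of 4 cell lines was sequenced as 1 library each (Illumina Genome Analyzer II). Reads with adapters or of low quality were dropped by the authors, who aligned the rest with NextGENe to an NCBI build that predates GRCh38, and deposited raw read counts per gene with gene lengths in bases. Treatment of reads with several matches and strand were not stated, so reads shared with pseudogenes or antisense genes cannot be told apart.

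Groups and parental lines came from the sample labels. Counts were scaled to the total gene count (CPM, and RPKM by the deposited length). Each pair was tested over all its genes with the Audic-Claverie test (tail doubled, Benjamini-Hochberg), with 0.5 added to each count for fold-changes, and intervals of ratios were exact (Clopper-Pearson). A joint fit used edgeR 4.0.16 (quasi-likelihood, TMM, filterByExpr). Its block was the parental line, taken from the labels, and the deviations of the paired libraries from their group means had a Pearson coefficient of 0.348 over 11151 genes. Genes absent from a pair counted as 0 there. Alternatives were TMM and DESeq2 1.42.0 size factors, another added count, a count filter, assumed BCVs of 0.2 and 0.4, and removal of length or of GC and length trends (lowess, genes with at least 20 counts). GC content came from the GENCODE 29 transcript (GRCh38) nearest in length. Scripts ran in Python 3.11.15 and R 4.3.3 and were tested on simulated data.

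All 33 members are reported. From other lists, the 3 called genes with the largest change in each direction and pair, of at least 50 counts in a library, are named. The members and lists were chosen with earlier results of these data known, and the GC ranges after seeing the values. Promoter sequences are RefSeq annotation only.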

Additional observations from a re-analysis of the deposited data

Results flagged for a closer look

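In 6 members the counting intervals of the ratio lay on opposite sides of 1 in the pairs, and the difference between the pairs was not tested, since each line had 1 library. This count used library totals and is given for the members only. In the Hep3B pair 30 of the 33 intervals lay below 1, and the median log2 fold-change of all genes was -0.60. The log2 fold-change of the Hep3B pair minus that of the Huh7 pair was -7.07 for ANKRD37, -3.46 for ERO1L, -3.27 for KDM3A, -2.26 for HIF1A, -1.19 for PFKFB4 and 2.01 for EGLN2. None of them was called in the Huh7 pair, and ANKRD37 rested on 13 counts there. EGLN2 was the one of these 6 with the higher ratio in the Hep3B pair, where its log2 fold-change was 1.598 as measured, 1.174 with the length trend removed and 0.08 with GC and length trends removed. In that pair PFKFB4 went from -0.77 to -0.18 with TMM and -0.09 with DESeq2 size factors. HIF1A went there from -1.86 to -0.52 with GC and length trends removed.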

How the results depend on the processing

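Each cell line had 1 library, and the assumed spread between replicates moved the calls most. At a BCV of 0.4, 6 members (VEGFA, PLOD2, LOX, ANKRD37, WSB1 and RORA) were down and 0 up in the Hep3B pair (1.09% and 0.401% of all genes). In the Huh7 pair 0 were then down (0.081%), and 0 in both (0.0144%). At 0.2, 20 members were down in the Hep3B pair (20.5% of all genes) and 2 (EGLN3 and CA9) in the Huh7 pair (1.09%). Members called up in the Hep3B pair numbered 2 with TMM (EGLN2 and DDIT4), against 21.6% of all genes. They numbered 3 with DESeq2 size factors (22.9%) and 2 with the length trend removed (10.5%). Medians of the members stayed negative in both pairs under the 5 alternatives run for them, from -2.07 to -1.59 in the Hep3B pair and from -0.20 to -0.06 in the Huh7 pair. A minimum of 10 counts over a pair, already used for the medians, changed no call of a member.

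Directions that turned belonged to values that were not called with library totals, and the cause was not tested. In the Huh7 pair these were ARNT (-0.029 with TMM, -0.054 with DESeq2 factors, -0.147 with the length trend removed and -0.14 with GC and length trends removed) and EGLN1 (-0.004, -0.029, -0.281 and -0.284 in the same order). With length and with both trends removed, ADM stood at 0.197 and 0.21, HIF1AN at -0.182 and -0.185, and STC2 at -0.14 and -0.131. CA12 stood at -0.011 with length removed and P4HA2 at 0.014 with both removed. In the Hep3B pair CA12 was at 0.298 with TMM, 0.383 with DESeq2 factors and 0.068 with length removed, P4HA2 at 0.081 with DESeq2 factors, and DDIT4 at -0.055 and -0.738 with length and with both removed. There DDIT4 was called up with TMM (1.214) and with DESeq2 factors (1.299), and P4HA2 was called down with both trends removed (-1.059).

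In the joint fit no member was called under any of 8 alternatives. For all genes, the 2 up and 1 down became 0 and 0 without the parental line as a replicate block, 2 and 2 with library totals, 3 and 5 without a filter, and 3 and 5 by DESeq2. Leaving out each sample, in the fit without the block because no residual degree of freedom is left with it, gave 0 to 1 up and 0 to 0 down, with the lone sample of a group assumed to vary like the other group.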
